A study of Rattus norvegicus with 14 samples.

Results

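The comparison described here set the blood mononuclear cells of arthritic rats under combined therapy, called MTXAP in the labels, against those of healthy rats given the needle alone, called HAP. Both groups were sampled after 34 days of therapy, and the question is what remained different from healthy animals under the combined therapy. Members were chosen by array title, which gave 3 MTXAP and 3 HAP arrays, 6 of the 14 in the series. All rats were female Wistar, an outbred laboratory strain. MTXAP rats had been immunised with bovine type II collagen in Freund's adjuvant, which raises collagen-induced arthritis, a model of rheumatoid arthritis. They then received methotrexate injections together with subcutaneous needle stimulation, named acupuncture in the labels and mechanical stimulation in the study. HAP rats were not arthritic and received no methotrexate, but did receive the needle. The other groups used for context are AP, arthritic rats given the needle alone for the same 34 days (3 arrays), and the untreated RA (arthritic, 2 arrays) and NORA (healthy, 3 arrays) rats sampled before therapy.

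MTXAP and HAP therefore differ in the disease and in the drug at once, and the part of each cannot be told apart in this comparison. The needle and the day of sampling are shared by both groups. None of the 14 arrays is from unstimulated rats at day 34. Rats were killed at sampling, so each array is an animal of its own, and no array of one group is paired with an array of another. Mononuclear cells separated on a density gradient are mostly T cells, B cells, NK cells and monocytes, with platelets and some red cell precursors carried along. In such a mixture fewer cells of a type and less RNA per cell cannot be told apart.

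Methotrexate enters cells through the reduced folate carrier and is lengthened by folylpolyglutamate synthase, which holds it inside the cell. It blocks dihydrofolate reductase and, in its lengthened form, enzymes that use folates to build purines and thymidylate, among them the one encoded by Atic. Blocking Atic raises extracellular adenosine, which restrains leukocytes through its receptors, and slower nucleotide synthesis holds back dividing lymphocytes. In arthritis of this kind B cells make antibodies to collagen, antigen-presenting cells show collagen peptides on MHC class II, and monocytes and neutrophils carry the inflammation into the joint.

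The values are array signals on a linear scale, read here as log2 signal, and a difference of 1 on this scale is a 2-fold difference. Signals of different probe sets are not on a common scale, so levels were compared only within a gene. The defining markers of the labelled cells were present on every one of the 6 arrays, with a log2 signal of Cd3e, a chain of the T cell receptor complex, from 11.88 to 12.72 and of Cd14, the monocyte receptor for endotoxin, from 10.03 to 12.96. MTXAP replicate 3 stood apart from the rest. Its mean correlation with the other 13 arrays was 0.882, against 0.912 to 0.934 on the other HAP and MTXAP arrays, and its ratio of 3' to 5' actin signal, a sign of RNA integrity, was 5.01 against 3.13 to 4.36. Its summed signal over 21 erythroid markers was 14309, where the other 5 arrays had 123708 to 217762. The other groups had actin ratios of 1.97 to 3.01. NORA replicate 3 had a mean correlation of 0.855. It enters the untreated comparison and, through the shared spread, the standard errors of all comparisons. Medians of lists that turned sign without MTXAP replicate 3 are given with and without it.

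Of the 18515 probe sets tested, limma called 0 in MTXAP against HAP at an adjusted p of 0.05, and the lowest adjusted p was 0.638. At an unadjusted p under 0.05 there were 1180, which is 6.37% of those tested. The same model without moderation of the variances called 2, of which 1 has a gene name, Arhgdib. At the thresholds of the study, an unadjusted p under 0.05 with at least 2-fold, there were 311 probe sets (1.68%), 112 higher (0.605%) and 199 lower (1.07%) in MTXAP. The split depended on scaling: with quantile normalization it was 154 higher and 168 lower, and with median centring 141 and 153, so that the share of higher probe sets went from 36.0% to 47.8% and 48.0%. The median standard error of a difference was 0.31. Each single-gene difference below is therefore a measured value that did not pass the adjusted test. Without MTXAP replicate 3 the counts at these thresholds were 171 higher and 418 lower, and without MTXAP replicate 2 they were 111 and 412.

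The named gene with the lowest p was Arhgdib, which encodes an inhibitor of small GTPases found in blood cells. Its log2 signal was 13.20, 13.42 and 13.14 on the HAP arrays and 12.15, 12.29 and 12.30 on the MTXAP arrays. The groups lay wholly apart, with MTXAP lower by 1.01 ± 0.16 (SE, log2 difference -1.01, unadjusted p = 5.77e-05 and adjusted p = 0.638 by limma). Every array of the other groups lay above them. AP arrays had 13.26, 13.27 and 13.14, NORA arrays 13.13, 13.08 and 13.20, and RA arrays 12.78 and 13.14. Leaving out any of the 6 arrays left a difference between -1.06 and -0.92. Without moderation its adjusted p was 0.0347, the only call of a named gene under that model.

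Arhgdib heads the 12 genes named for a lower signal in MTXAP, taken in order of p from 23 genes at the study's thresholds whose arrays did not overlap and whose signal was in the upper range. Since the choice required non-overlapping arrays, the separation of these genes is not a result in itself, and over all probe sets tested 8.63% had every MTXAP array below every HAP array. The 12 genes had log2 differences from -2.79 to -1.01 and unadjusted p from 5.77e-05 to 0.00946.

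Fcer2, the low-affinity IgE receptor CD23 of mature B cells, had log2 signals of 9.59, 9.10 and 9.52 in HAP and of 6.88, 7.66 and 7.92 in MTXAP. The highest MTXAP array lay more than 1 log2 unit below the lowest HAP array, and the difference was -1.92 ± 0.39 (SE, adjusted p = 0.638). Bcl11a, a transcription factor of B cell development and of plasmacytoid dendritic cells, had 8.94, 8.55 and 9.86 in HAP and 7.11, 7.78 and 8.16 in MTXAP, a difference of -1.43 ± 0.41. AP arrays, the arthritic rats on the needle without the drug, had 10.38, 9.43 and 8.72 for Fcer2, all above the MTXAP arrays.

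Fcnb, the lectin ficolin B made by monocytes and neutrophil precursors, had 13.52, 12.97 and 13.67 in HAP and 10.42, 12.59 and 8.76 in MTXAP. The difference of -2.79 ± 0.77 was uneven, with MTXAP replicate 2 close to the HAP arrays and the others far below. Pilra, an inhibitory receptor of myeloid cells, had 11.90, 11.53 and 12.09 against 9.35, 11.06 and 10.69, with -1.47 ± 0.47. In Plxnb2 and Nrp1, receptors for semaphorins, MTXAP replicate 2 was again the nearest to HAP: Plxnb2 had 9.04, 10.29 and 8.99 in MTXAP where the lowest HAP array had 10.38 (-1.28 ± 0.34), and Nrp1 had 8.37, 9.88 and 8.93 where the lowest HAP array had 9.98 (-1.20 ± 0.37, with -0.31 on its other tested probe set). Gngt2, a gamma subunit of G proteins, followed with -1.02 ± 0.30.

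Ly6e and Ifi27l2b, genes induced by interferon, were also among the 12. Ly6e had 11.22, 11.08 and 11.06 in HAP and 9.49, 10.33 and 9.96 in MTXAP, a difference of -1.19 ± 0.27, although its other tested probe set gave -0.41. Ifi27l2b had 12.74, 13.23 and 13.14 in HAP and 11.64, 12.12 and 12.22 in MTXAP, a difference of -1.04 ± 0.23. The groups did not overlap in either gene, while the interferon list as a whole, described further on, had a median of -0.04. The remaining members of the 12 were Herc3, a ubiquitin ligase (-1.20 ± 0.24), and Lyrm4, which assembles iron-sulfur clusters in mitochondria (-1.17 ± 0.35).

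For these 12 genes the differences in the other comparisons had both signs. AP minus HAP, which uses the same HAP arrays, ran from -0.23 to 0.44, and RA minus NORA, which shares no array with MTXAP or HAP, ran from -0.41 to 0.98. Nrp1 had the highest of the latter, at 0.98, and Bcl11a and Lyrm4 the lowest. The distance from healthy rats under combined therapy was tested against the distance before therapy as one contrast, and limma called 0 of 18515 probe sets there (lowest adjusted p = 0.38), with 1459 (7.88%) at an unadjusted p under 0.05. Of the 12 genes 10 were among those 1459, but they were chosen on one side of that contrast.

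**Figure D1:**
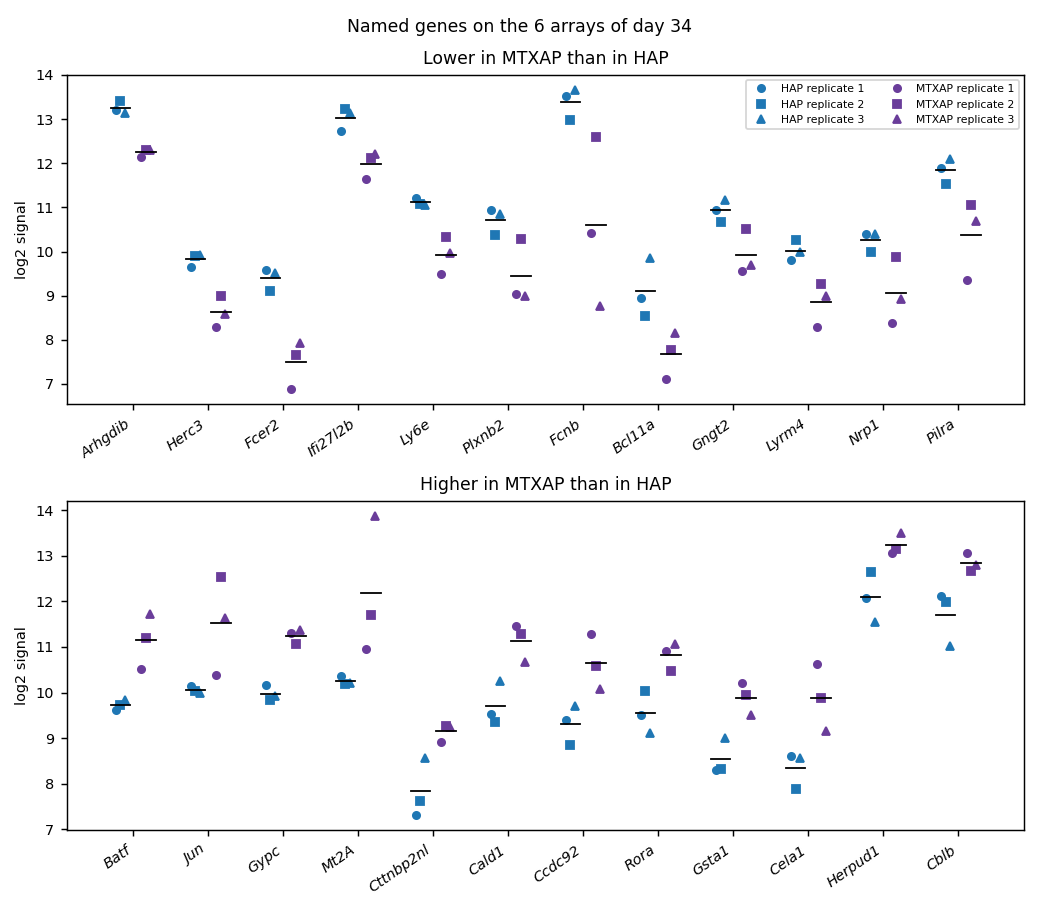
Log2 signal (vertical axis) of the 12 genes named for a lower and the 12 named for a higher signal in MTXAP, on the 3 HAP arrays (blue) and the 3 MTXAP arrays (purple), with black bars for the group means. In the upper panel MTXAP replicate 2 (square) lies nearest to HAP for Herc3, Ly6e, Plxnb2, Fcnb, Gngt2, Lyrm4, Nrp1 and Pilra. In the lower panel Jun and Mt2A spread widest over the MTXAP arrays.

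The 12 genes named for a higher signal came from 14 genes that met the same rule, with log2 differences from 1.14 to 1.93 and unadjusted p from 0.00334 to 0.0413 (adjusted p from 0.708 to 0.759). Over all probe sets 5.29% had every MTXAP array above every HAP array. Batf, a transcription factor of the AP-1 family needed for helper T cell subsets and for antibody class switching, had 9.62, 9.73 and 9.84 in HAP and 10.52, 11.19 and 11.72 in MTXAP. The HAP arrays were tightly grouped and all MTXAP arrays lay above them, with a difference of 1.41 ± 0.38. Batf was also at 10.59 and 10.52 in RA, and at 9.62, 10.75 and 10.42 in AP, so that only MTXAP replicates 2 and 3 stood above every array of the other groups.

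Jun, the AP-1 subunit that pairs with Fos and Batf, had 10.14, 10.03 and 10 in HAP and 10.39, 12.54 and 11.64 in MTXAP. The difference of 1.46 ± 0.45 came mostly from MTXAP replicates 2 and 3, and without replicate 2 it was 0.96. Its other tested probe sets gave 1.08 and 0.78. Herpud1, induced when unfolded proteins build up in the endoplasmic reticulum, had 1.14 ± 0.50, and Cblb, a ubiquitin ligase that restrains T cell activation, had 1.14 ± 0.50. Rora, a nuclear receptor of the circadian clock and of T helper 17 and innate lymphoid cells, had 9.50, 10.04 and 9.12 in HAP against 10.91, 10.48 and 11.06 in MTXAP (1.26 ± 0.53), and it was also higher in RA than in NORA, by 1.75.

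Mt2A, a metallothionein that binds zinc and copper and is induced by metals and glucocorticoids, had the largest difference of the 12. Its log2 signal was 10.37, 10.18 and 10.22 in HAP and 10.96, 11.70 and 13.88 in MTXAP. All MTXAP arrays lay above HAP, but replicate 3, the array with the highest actin ratio and little erythroid signal, was far above the others, and without it the difference of 1.93 ± 0.66 became 1.07. On the AP arrays Mt2A had 10.58, 10.22 and 10.74. Its promoter is shown because metallothioneins respond to metals through short metal response elements, whose core was searched on both strands as TGCACNC and TGCGCNC. The 250 bases before its start (RefSeq, GRCr8, chr19:10838709-10838958, minus strand) held 4 matches, in capitals.
Mt2A: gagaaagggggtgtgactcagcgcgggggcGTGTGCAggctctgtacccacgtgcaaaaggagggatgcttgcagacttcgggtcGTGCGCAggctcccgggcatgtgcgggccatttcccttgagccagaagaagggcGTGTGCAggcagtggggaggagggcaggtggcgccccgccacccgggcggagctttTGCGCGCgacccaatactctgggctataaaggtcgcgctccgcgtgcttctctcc
Among 33469 rat promoters of the same length, 20.6% held at least 1 such match in this window and 0.266% held 4 or more. A match describes the letters only. Promoter sequences were at hand for 18 of the 24 genes of both directions.

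Of the 12 higher genes 6 were below 0 in RA minus NORA. Cald1, an actin-binding protein, had 9.53, 9.36 and 10.25 in HAP and 11.45, 11.28 and 10.66 in MTXAP, a difference of 1.42 ± 0.56. AP arrays were as high as MTXAP, with 10.80, 11.23 and 11.77, while RA arrays were low, with 9.18 and 9.60, and NORA arrays had 9.59, 11.91 and 12. Gypc, a glycophorin of red cell and other blood cell membranes, had 10.16, 9.83 and 9.93 in HAP against 11.30, 11.06 and 11.38 in MTXAP (1.28 ± 0.43). Its RA arrays, at 9.84 and 9.80, were level with HAP. Its AP arrays had 10.31, 10.61 and 11.35, and its NORA arrays 9.98, 10.62 and 12.03.

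Cela1, an elastase (1.54 ± 0.66), Gsta1, a glutathione transferase with close relatives in the genome (1.34 ± 0.56), Ccdc92 (1.34 ± 0.52) and Cttnbp2nl (1.31 ± 0.51) had the same signs. In these 6 genes the difference RA minus NORA was negative, from -0.82 for Cttnbp2nl to -2.43 for Cela1, and AP minus HAP was between 0.47 and 1.56. The means in NORA, healthy rats sampled before therapy, lay above HAP in all 6, with SDs from 0.89 to 1.39. NORA and MTXAP means were 11.17 and 11.13 for Cald1, 9.90 and 9.89 for Cela1, and 10.12 and 9.88 for Gsta1. They were 10.42 and 10.65 for Ccdc92, 10.88 and 11.25 for Gypc, and 8.43 and 9.15 for Cttnbp2nl. Markers of platelets gave, over 15 genes, medians of 0.42 in MTXAP minus HAP, -1.44 in RA minus NORA and 0.74 in AP minus HAP. The part of platelet RNA in the values of these genes was not tested.

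**Figure D2:**
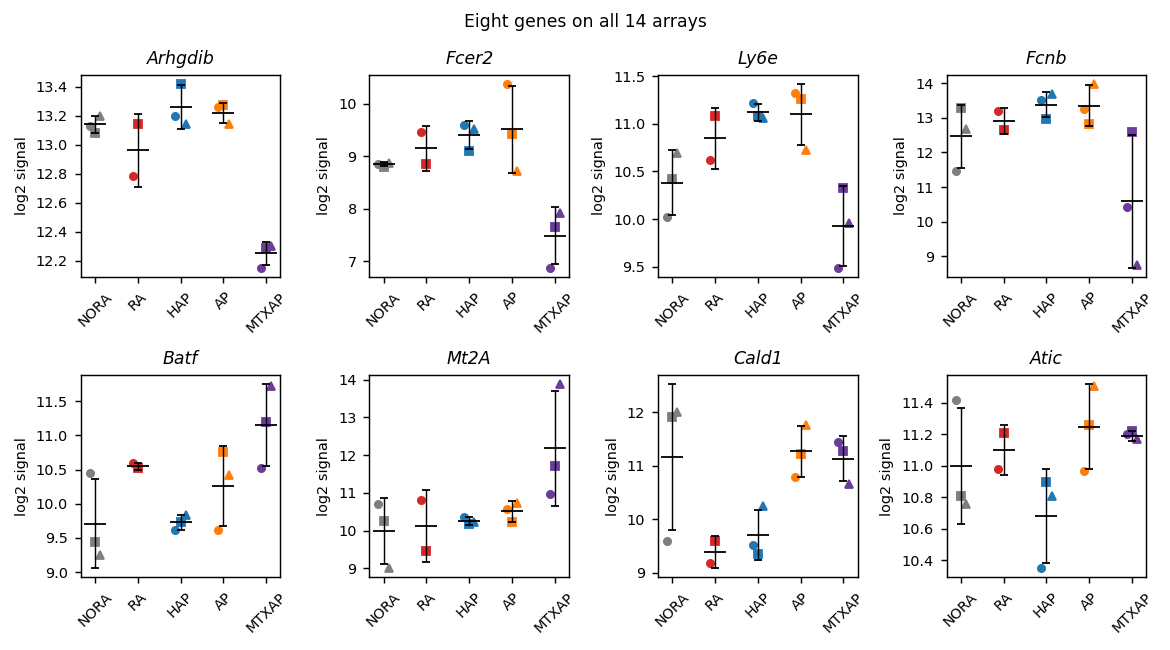
Log2 signal (vertical axis, a separate scale in each panel) of 8 genes on all 14 arrays, with the group mean and SD as black bars (n = 2 in RA, otherwise 3). Arhgdib, Fcer2 and Ly6e have their lowest mean in MTXAP, Batf and Mt2A reach their highest values there, and Cald1 is at a like level in AP and MTXAP.

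The gene lists place these genes among others of their kind. Of 10107 genes, each read on 1 probe set, 44.2% had a difference above 0 and the median was -0.05. At an unadjusted p under 0.05 there were 1.3% on the higher and 5.23% on the lower side, and 1.51% were at the study's thresholds. Over the 38 lists 0 members were called by the adjusted test, and the lists are described by counts and medians.

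B cell markers were mostly on the lower side. Of 13 measured, 10 were below 0, with a median of -0.39, and 3 had an unadjusted p under 0.05, where the share over all genes on that side is 5.23%. These were Fcer2, Cr2 and Stap1. Cr2, the complement receptor 2 that lowers the threshold of B cell activation, had 10.07, 9.58 and 10.13 in HAP and 7.99, 8.93 and 9.66 in MTXAP. The groups overlapped in Cr2 between MTXAP replicate 3 and HAP replicate 2, and the difference was -1.07 ± 0.42. The 4 other tested probe sets of Cr2 gave smaller differences, -0.06, -0.22, -0.27 and -0.49. Stap1, an adaptor below the B cell receptor, had -0.66 ± 0.24, and Pou2af1, a coactivator of antibody genes, had -0.61 ± 0.35.

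Over the arrays the B cell score, the mean of the markers after each was centred, was 0.48, -0.15 and 0.36 in HAP and -0.65, -0.35 and 0.40 in MTXAP. MTXAP replicate 3 thus lay with HAP, and without it the median was -0.83, with 7 of 13 markers lower at an unadjusted p under 0.05, where 6.62% of all genes were in that setting. Without MTXAP replicate 2 the median was only -0.10, and without HAP replicate 1 it was -0.14. Fcer2 and Stap1 were exceptions, as MTXAP replicate 3 was below every HAP array in both. In AP minus HAP the median of B cell markers was -0.02, and in RA minus NORA it was 0.08.

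Genes of MHC class II, which present peptides to helper T cells, were below 0 in 9 of 9, with a median of -0.26. RT1-DMb, a chain of the molecule that loads peptides onto class II, had 13.08, 12.31 and 12.63 in HAP and 11.72, 12.21 and 12.13 in MTXAP. Every MTXAP array was below the HAP arrays, by a difference of -0.65 ± 0.23. Ciita, the transactivator that switches class II genes on, had 9.14, 9.20 and 9.95 against 8.53, 8.33 and 8.84, with -0.86 ± 0.31, and -0.29 on its other tested probe set. RT1-DMa, the partner chain, had -0.55 ± 0.26, and Cd74, the invariant chain, -0.25 ± 0.29. As with B cells, the score of MTXAP replicate 3 (0.33) was within the HAP range (-0.08 to 0.67) while replicates 1 and 2 (-0.36 and -0.32) were below it, and without replicate 3 the median was -0.66. Without HAP replicate 1, the array with the highest score (0.67), the median was -0.03. RA minus NORA had a median of 0.29 and AP minus HAP of -0.13.

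Among 16 monocyte markers 14 were below 0 and the median was -0.51, but none had an unadjusted p under 0.05, with the lowest at 0.0642 for Ccr2. Csf1r, the receptor for the monocyte growth factor, had 11.71, 11.46 and 11.98 in HAP and 10.91, 11.59 and 10.59 in MTXAP, a difference of -0.69 ± 0.36. Tyrobp, an adaptor of activating myeloid receptors, had -0.86 ± 0.48, and Ccr2, the chemokine receptor of inflammatory monocytes, had -1.64 ± 0.80, with 3 of the 6 arrays above their medians. The monocyte score was 0.36, -0.17 and 0.52 in HAP and -0.93, 0.18 and 0.10 in MTXAP, so MTXAP replicate 1 alone lay outside the HAP range. Without that array the median was -0.12, and without HAP replicate 3 it was -0.26. Tlr8, a receptor for single-stranded RNA in myeloid cells, had 9.74, 9.54 and 10.36 against 8.60, 9.37 and 8.12 (-1.18 ± 0.44), though 17 of the 22 Toll-like receptor and NF-kB feedback genes were above 0, with a median of 0.12 that was -0.04 without MTXAP replicate 3.

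Neutrophil markers varied more among the MTXAP rats than between the groups. Their score was 0.27, -0.01 and 0.37 in HAP and -1.02, 1.39 and -1.04 in MTXAP, with 9 of 11 markers below 0 and a median of -0.23. That median was 0.08 without MTXAP replicate 1 and -0.93 without replicate 2. S100a8 and S100a9 are alarmins of neutrophils and monocytes, which the study measured as protein in blood serum and not as RNA of these cells. In HAP, S100a8 had 13.88, 13.02 and 13.67 and S100a9 had 14.96, 14.35 and 14.61. On the MTXAP arrays S100a8 had 12.11, 14.73 and 13.08 and S100a9 had 13.79, 15.22 and 14.22, lying on both sides of HAP, with differences of -0.22 ± 0.60 and -0.23 ± 0.44. Leaving out MTXAP replicate 1 turned both above 0, to 0.38 and 0.08. MTXAP replicate 2, with the highest neutrophil score, is also the MTXAP array that lay nearest to HAP for Fcnb, Plxnb2, Nrp1, Gngt2 and Pilra. It was likewise the nearest for Herc3, Ly6e and Lyrm4, but not for Arhgdib, Fcer2, Ifi27l2b or Bcl11a. The part of neutrophil content in these values was not tested.

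T cell markers had a median of -0.22, with 14 of 19 below 0, and none had an unadjusted p under 0.05. Cd3e had 12.31, 12.72 and 12.23 in HAP and 12.32, 11.88 and 11.90 in MTXAP, overlapping between the groups (-0.39 ± 0.21), and Cd6, a costimulatory receptor, had -0.61 ± 0.28. Without MTXAP replicate 3 the median was -0.04. Markers of NK and cytotoxic cells had a median of 0.11, with 12 of 20 above 0, and a median of -0.21 without MTXAP replicate 1. Of the 20, 1 was lower at an unadjusted p under 0.05, where 5.23% of all genes were on that side. This was Klrk1, the activating receptor NKG2D. It had 8.53, 8.97 and 8.70 in HAP and 8.02, 8.03 and 8.01 in MTXAP, a difference of -0.71 ± 0.24 with an SD of 0.01 among the MTXAP arrays. Klrb1b, an inhibitory lectin receptor of NK cells, went the other way, with 8.70, 8.87 and 8.48 against 9.21, 9.62 and 9.65 (0.81 ± 0.38). HAP was the lowest group for Klrb1b, with a mean of 8.68 against 9.49 in MTXAP, 9.64 in AP and 9.26 in both NORA and RA. In AP minus HAP the median of the NK and cytotoxic markers was 0.7, with 18 of 20 above 0, and in RA minus NORA it was 0.19.

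Platelet markers were above 0 in 15 of 15, with a median of 0.42, and none had an unadjusted p under 0.05. Ppbp, a chemokine precursor of platelet granules, had 11.29, 10.69 and 11.85 in HAP and 11.94, 12.55 and 11.95 in MTXAP (0.87 ± 0.56). Gp9, a subunit of the platelet receptor that binds von Willebrand factor, had 11.53, 11.15 and 11.80 against 13.04, 12.89 and 10.78, high on MTXAP replicates 1 and 2 and below HAP on replicate 3. The summed platelet signal was 169431 to 192745 in HAP and 264404, 267745 and 141734 in MTXAP. Without replicate 3 the median was 0.79 and 14 of 15 were above 0, and without replicate 1 or 2 it was 0.15 or 0.18.

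The erythroid list shows how far 1 array can move a median. Its median was -1.05, with 17 of 21 below 0, and without MTXAP replicate 3 it was 0.65, with 20 of 21 above 0. Alas2, which starts haem synthesis in red cell precursors, had 13.47, 14.33 and 14.09 in HAP and 14.33, 14.47 and 5.64 in MTXAP. The first pair of MTXAP arrays was at the HAP level and replicate 3 was at a signal below its array's median, so the difference of -2.49 ± 1.87 turned to 0.43 without it.

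**Figure D3:**
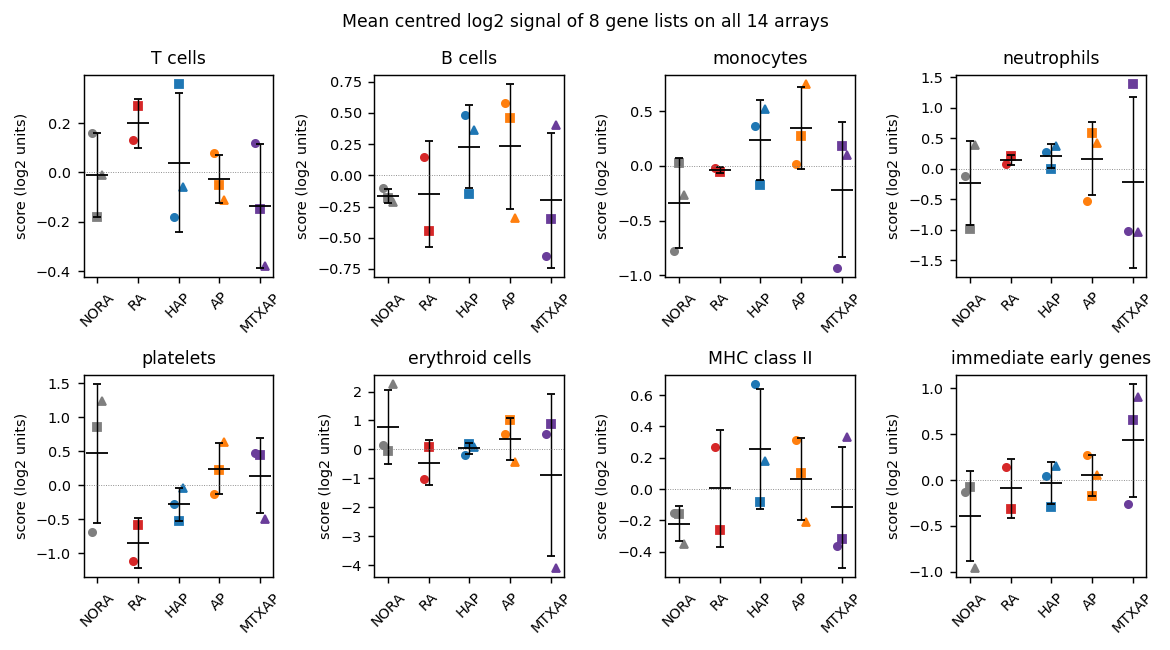
Score of 8 gene lists (mean of the centred log2 signals of its genes, in log2 units, vertical axis, a separate scale in each panel) on all 14 arrays, with circles, squares and triangles for replicates 1, 2 and 3, and group means and SD as black bars (n = 2 in RA, otherwise 3). MTXAP replicate 3 is at -4.10 for erythroid cells and within the HAP range for B cells, and the neutrophil score of MTXAP replicate 2 is 1.39.

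The targets and handling of methotrexate were followed through 26 measured genes of the folate list. Of these, 14 were above 0, with a median of 0.05, and 3 were higher and 1 lower at an unadjusted p under 0.05, where 1.3% and 5.23% of all genes were. Of the 3 higher genes Fpgs passed the filter on low signal only through the MTXAP arrays, where it is high, and Mtr had a low signal, so this count is not read against those shares. Atic, which carries out the final steps of purine synthesis, had 10.35, 10.90 and 10.81 in HAP and 11.20, 11.22 and 11.17 in MTXAP. The MTXAP arrays lay close together and above HAP, with a difference of 0.51 ± 0.23 (unadjusted p = 0.0491, adjusted p = 0.778 by limma). AP arrays, without the drug, had 10.97, 11.26 and 11.51, and AP minus HAP was 0.56. The promoter of Atic is shown as that of the enzyme among these 4 genes that the drug inhibits directly. Its 250 bases before the start (RefSeq, GRCr8, chr9:80614061-80614310, plus strand) held 1 E-box of the form CACGTG, in capitals, a sequence that factors of the Myc family bind.
Atic: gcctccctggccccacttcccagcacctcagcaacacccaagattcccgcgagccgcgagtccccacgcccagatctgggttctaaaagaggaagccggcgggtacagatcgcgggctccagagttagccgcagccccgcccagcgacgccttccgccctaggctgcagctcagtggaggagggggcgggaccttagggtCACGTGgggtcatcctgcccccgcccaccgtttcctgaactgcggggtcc
The share of the same promoters that held this word, which reads the same on both strands, was 5.59%.

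Fpgs, the synthase that lengthens methotrexate and folates, had 6.47, 4.97 and 6.45 in HAP and 7.22, 7.33 and 10.12 in MTXAP. All HAP values were below the median signal of their arrays, and the difference of 2.26 ± 0.79 rested in large part on MTXAP replicate 3, without which it was 1.31. On the scale log2(signal + 32) it was 1.82. In AP, Fpgs had 5.89, 4.33 and 3.91. Mtr, methionine synthase, had 1.91 ± 0.81, but only 1 of the 6 arrays was above its array's median, and the difference was 0.98 on the log2(signal + 32) scale.

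Ppat, which commits ribose to purine synthesis, was the gene on the lower side, with 8.04, 8.17 and 8.24 in HAP and 8.10, 7.48 and 7.53 in MTXAP (-0.45 ± 0.20). The groups overlapped through MTXAP replicate 1. Mthfd2, the mitochondrial folate enzyme of dividing cells, had 11.56, 11.88 and 11.76 against 12.95, 12.61 and 11.70 (0.69 ± 0.33), high on MTXAP replicates 1 and 2 alone. Shmt1, serine hydroxymethyltransferase, had 0.61 ± 0.31, Gart, another purine enzyme, 0.51 ± 0.38, and Slc19a1, the reduced folate carrier, 0.51 ± 0.33. Ggh, which shortens the polyglutamate tail again, had -0.49 ± 0.36, and the exporter Abcc1 had 0.03 ± 0.18.

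**Figure D4:**
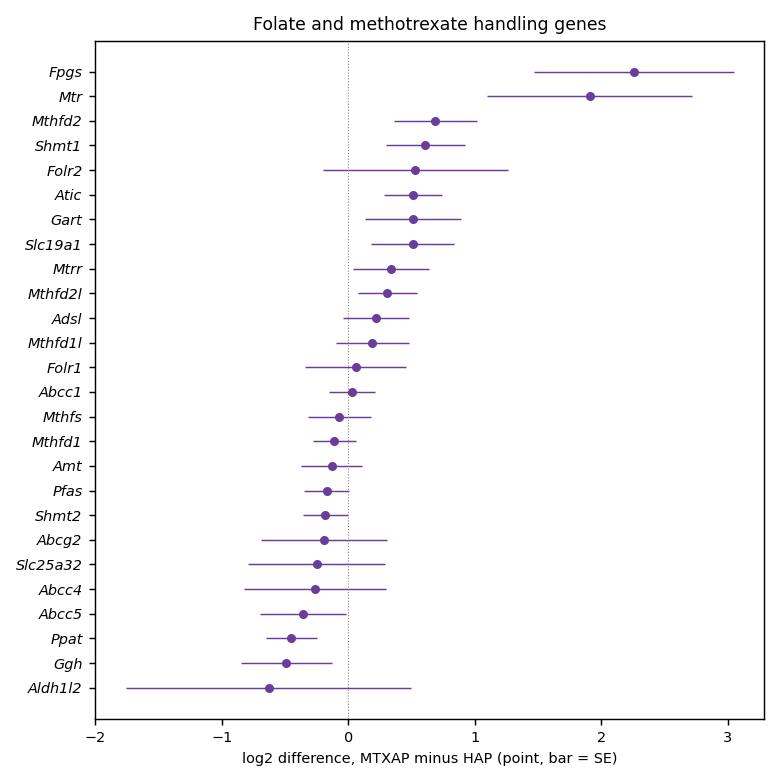
Log2 difference MTXAP minus HAP (horizontal axis) with its standard error for the 26 measured genes of the folate and methotrexate handling list. Fpgs (2.26) and Mtr (1.91) have the largest differences and wide errors, and Atic (0.51) and Ppat (-0.45) have narrower ones.

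Nucleotide synthesis genes had 9 of 20 above 0, with a median of -0.03. Samhd1, which breaks down deoxynucleotides in myeloid and resting cells, had 11.02, 10.53 and 11.66 in HAP and 9.30, 10.95 and 9.44 in MTXAP, low on replicates 1 and 3 and within HAP on replicate 2 (-1.18 ± 0.52). DNA replication genes had 20 of 32 above 0, with a median of 0.10 that was -0.04 without MTXAP replicate 3. Mcm4, a part of the replicative helicase, had 10.34, 10.17 and 10.13 in HAP and 11, 10.72 and 11.16 in MTXAP, without overlap (0.75 ± 0.31), while Prim1, a primase subunit, had -0.48 ± 0.19 and Mcm7, another part of the same helicase, -0.40 ± 0.24. Mitosis genes had 13 of 27 above 0 and a median of -0.04, or 0.13 without MTXAP replicate 3. Bub1b, a spindle checkpoint kinase, had 2.28 ± 0.60, but it was below the array median on all 6 arrays, and the difference was 0.94 on the log2(signal + 32) scale. HAP was the lowest group, with a mean of 3.29 against 5.57 in MTXAP, 6.42 in AP, 6.95 in NORA and 6.60 in RA.

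Of 19 genes of the p53 and DNA damage response 13 were above 0, with a median of 0.12, and 3 were higher at an unadjusted p under 0.05, against 1.3% of all genes. Without MTXAP replicate 3 the count at that p was 1, and the median was 0.19. Bbc3, which encodes the cell death protein PUMA, had 10.06, 10.40 and 9.75 in HAP and 11.08, 10.95 and 10.65 in MTXAP, without overlap (0.83 ± 0.37). In AP minus HAP it had -0.60. Tp53inp1, a stress protein induced by p53, had 0.57 ± 0.25, and Gadd45g, a growth arrest gene, had 1.34 ± 0.60 with overlapping arrays and 0.68 without MTXAP replicate 3.

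Adenosine and purinergic genes had 17 of 28 above 0, with a median of 0.10 that was -0.01 without MTXAP replicate 3. Adora2a encodes an adenosine receptor through which leukocytes are restrained, which the study measured as protein in serum. Its log2 signal was 9.18, 9.09 and 8.68 in HAP and 8.65, 8.86 and 10.31 in MTXAP. It lay within or below HAP on MTXAP replicates 1 and 2 and above HAP on replicate 3. Its difference of 0.29 ± 0.40 turned to -0.22 without replicate 3. Adora3, whose protein the study reports as reduced in serum, had no probe set with a single symbol and was not read here. P2ry14, a receptor for UDP-glucose, had -1.58 ± 0.63, with 2 of the 6 arrays above their medians. It was the 1 member of 28 with an unadjusted p under 0.05, where 5.23% of all genes were on the lower side.

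Immediate early genes, which are switched on within minutes of stimulation or of handling of cells, had 21 of 25 above 0 and a median of 0.40. Beside Jun, 0 others had an unadjusted p under 0.05, where 1.3% of all genes were on the higher side. Fos, which the study followed in cultured synovial cells, had 11.79, 11.90 and 12.33 in HAP and 11.45, 14.21 and 12.60 in MTXAP, spread on both sides of HAP (0.74 ± 0.57). Fosl2, of the same family, had 1.15 ± 0.55. The other tested probe set of each went the opposite way, with -0.93 for Fos and -0.43 for Fosl2. The score was 0.04, -0.29 and 0.15 in HAP and -0.26, 0.65 and 0.91 in MTXAP, with replicate 1 inside and replicates 2 and 3 above the HAP range. Without replicate 3 the median was 0.17.

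Interferon response genes had 13 of 31 above 0, with a median of -0.04. At the study's thresholds 1 of the 31 was found, Ifi27l2b, where 1.51% of all genes were. Ifi27, a relative of it, had -0.41 ± 0.20, and Oasl, an antiviral sensor gene, had 0.74 ± 0.35. Inflammatory cytokines and receptors had 9 of 21 above 0 and a median of -0.11. Il1rn, the interleukin 1 receptor antagonist, had 7.12, 7.58 and 8.40 in HAP against 4.46, 7.77 and 6.30 in MTXAP, overlapping (-1.52 ± 0.69), and Il17ra, the interleukin 17 receptor, had -0.76 ± 0.37. Chemokines and their receptors had 15 of 26 above 0 and a median of 0.14, or -0.17 without MTXAP replicate 3. Ccr10, a homing receptor for skin and mucosa, had 7.16, 6.61 and 6.66 in HAP and 3.87, 6.33 and 3.49 in MTXAP (-2.25 ± 0.58), with 1 of the 6 arrays above its array's median and -1.25 on the log2(signal + 32) scale. Leaving out MTXAP replicate 2 made it one of 2 called probe sets, at -3.13 with an adjusted p of 0.00933.

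The lists that the study built for its wound healing question had medians between -0.08 and 0.05, and that of EMT, -0.04, was 0.01 without MTXAP replicate 3. Wound healing (whGO) had 106 of 206 genes above 0, with 16 lower and 3 higher at an unadjusted p under 0.05, beside shares of 5.23% and 1.3% over all genes. Response to wounding (rwGO) had 200 of 394 above 0, inflammation (InflGO) 126 of 286, EMT 74 of 172, EMT.T2 26 of 50, early healing (Heal E.) 24 of 55 and early mechanotransduction (Mec. E.) 15 of 25. Gsk3b, a kinase of the Wnt pathway in the EMT lists, had 9.25, 9.41 and 9.51 in HAP and 10.29, 10.61 and 10.26 in MTXAP, without overlap (0.99 ± 0.32). Its AP minus HAP was 1.06 and its RA minus NORA -1, the same order of signs as in Cald1. Stat3, which carries interleukin 6 signals, had 11.10, 11.09 and 10.91 against 11.74, 11.64 and 11.83 (0.70 ± 0.24), with -0.07 in AP minus HAP. Msn, which ties actin to the membrane, had -0.50 ± 0.16, and Lcp1, a wound healing gene that bundles actin in leukocytes, had 12.98, 13.16 and 13.27 against 11.89, 12.78 and 12.30 (-0.81 ± 0.25).

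Rac1 and Rhoa, the small GTPases the study discusses and that the Arhgdib protein can hold inactive, had overlapping arrays. Rac1 had 13.61, 13.57 and 13.84 in HAP and 14.28, 14.18 and 12.90 in MTXAP (0.11 ± 0.47), and Rhoa had 12.76, 12.54 and 12.74 against 12.32, 12.61 and 12.38 (-0.24 ± 0.18). Arhgef1, which activates RhoA and belongs to the early healing list, had 11.42, 11.38 and 10.82 in HAP and 10.77, 10.55 and 10.33 in MTXAP, without overlap (-0.66 ± 0.23). S100a6, a calcium-binding protein of the same list, had -0.94 ± 0.32, and Nos2, the inducible nitric oxide synthase, -2.03 ± 0.66 with 2 of the 6 arrays above their medians.

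**Figure D5:**
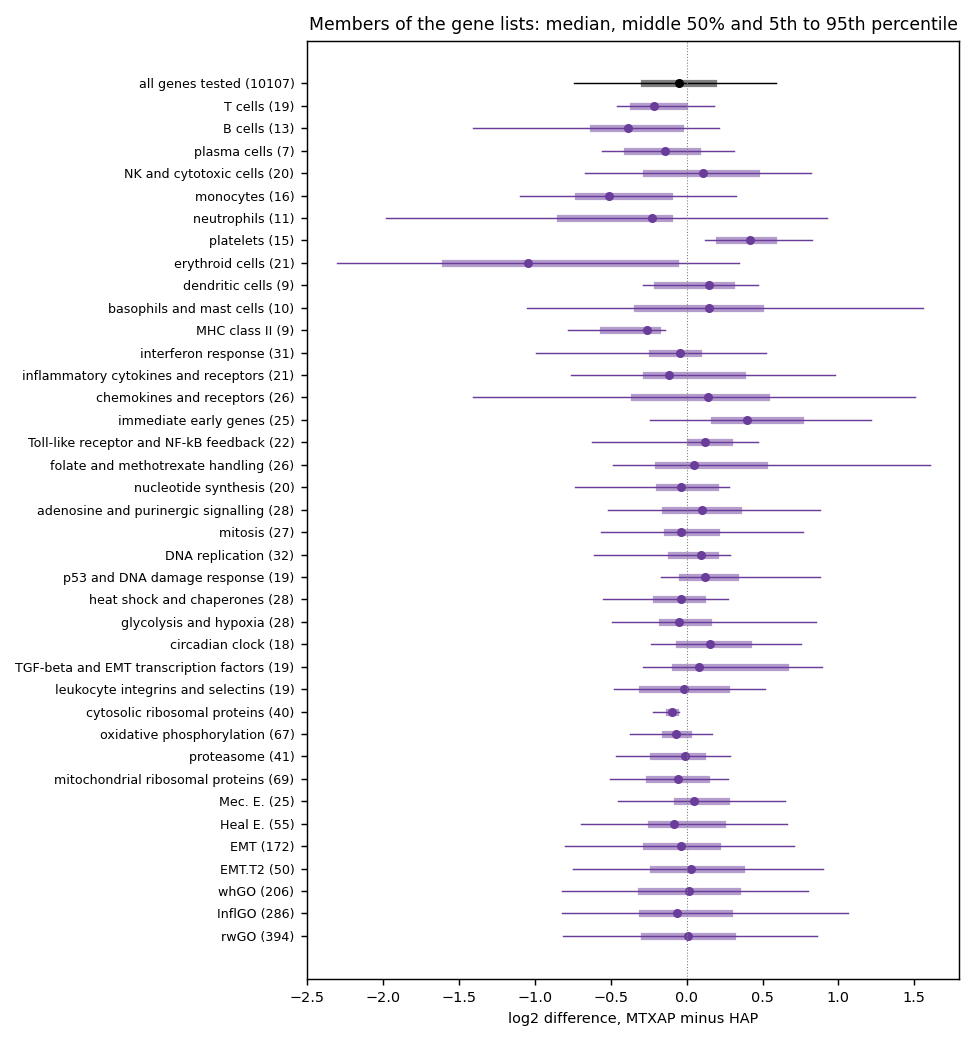
Log2 difference MTXAP minus HAP (horizontal axis) over the measured members of 38 gene lists (number in brackets), with the median as a point, the middle 50% as a thick bar and the 5th to 95th percentile as a thin line. All genes tested (black) have a median of -0.05, and the medians of platelets (0.42) and immediate early genes (0.40) lie highest and that of erythroid cells (-1.05) lowest.

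The untreated comparison, RA minus NORA, gives the distance from healthy rats before therapy on other arrays. Across 10107 genes the correlation between the 2 sets of differences was -0.04 (Pearson's r over genes, which are not independent replicates). Of the 112 probe sets higher in MTXAP at the study's thresholds, 45 (40.2%) were also above 0 in RA minus NORA, where 55.5% of all probe sets tested were. Of those 112, 2 were among the 157 higher in RA (1.79% of the first and 1.27% of the second), and 13 were among the 709 lower in RA (11.6% and 1.83%). Of the 199 lower in MTXAP, 112 (56.3%) were below 0 in RA minus NORA, where 44.5% of all were. Of those 199, 5 were among the 709 lower in RA (2.51% and 0.705%) and 3 among the 157 higher in RA (1.51% and 1.91%). Over all probe sets tested, 0.848% were higher and 3.83% lower in RA at these thresholds.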

How the data were processed

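RNA of rat blood mononuclear cells was measured on Affymetrix rat230 2.0 arrays. The deposited values are intensities on a linear scale, which the authors computed per probe set by MAS5 in the affy package (version not stated). Each column has a trimmed mean of 500 once 2% of its values are cut from either side. All 14 columns entered the work. Groups follow the labels, and matching MTXAP, HAP, AP, RA and NORA to the study's codes MTXMS_A, NOCIAMS_A, MS_A, CIA_B and NOCIA_B is a reading made here. The series text speaks of 3 replicates per group, but RA has 2 arrays.

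Of 31042 probe sets without controls, those exceeding their array's median 2 times or more among the 14 arrays were kept (18515). The platform annotation gives 20826 of the 31042 a single symbol, 436 several and 9780 none. limma 3.58.1 (R 4.3.3) was run on plain log2 signals, with a mean for each of the groups over all 14 arrays, empirical Bayes moderation and Benjamini-Hochberg adjustment over all tested probe sets, and tests are two-sided. The difference between comparisons is a contrast of the same fit. The fit was tested on simulated data. Tables and plots were made in Python. Lists use 1 probe set per gene, the brightest. Older names were matched through synonyms, except where a name is now that of another gene.

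Genes were named by rule: up to 12 per direction by p among probe sets with 1 symbol at the study's thresholds without overlap, whose brighter group had a mean past the 60th percentile, since 0 passed the adjusted test; up to 4 members per list by p; the folate list; genes the study speaks of; and defining cell markers. Lists were 31 written here, for markers of T, B, plasma, NK and cytotoxic, dendritic and erythroid cells, monocytes, neutrophils, platelets, and basophils with mast cells, and for the programmes in the plot of lists, and 7 of the study. The members and lists were chosen with earlier results of these data known. Alternatives were quantile normalization, median centring, log2(signal + 32), no filter, a filter of 7 arrays, the 6 arrays only, array weights, no moderation, the replicate number as a block, and leaving out each array of both groups. Arrays give no counts, so their number limits the precision.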

Additional observations from a re-analysis of the deposited data

How the results depend on the processing

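With limma, MTXAP against HAP had 0 called probe sets under quantile normalization, median centring, log2(signal + 32), both other filters, the 6 arrays alone and array weights, 2 without moderation (Arhgdib and an unnamed probe set), and 0 to 2 when 1 array was left out, the 2 being Ccr10 and an unnamed probe set without MTXAP replicate 2. On the 6 arrays without MTXAP replicate 3, chosen after seeing the data, 1 was called (Virma, -3.33). The contrast with RA minus NORA had 1 with array weights (Agps, -5.25) and 0 to 2 without 1 array, with 2 called without MTXAP replicate 2 and 2 (Agps and Nxph4) without MTXAP replicate 3. The 1180 probe sets at an unadjusted p under 0.05 became 1998 with array weights, 784 to 1471 without 1 array (784 without HAP replicate 3) and 2298 on the 6 arrays without MTXAP replicate 3. At the study's thresholds the 112 higher and 199 lower became 70 and 105 with log2(signal + 32), 409 and 626 with no filter, 54 and 127 with the filter of 7 arrays, 166 and 315 with array weights, and 71 and 157 without moderation. They became 105 to 171 and 151 to 418 without 1 array, and 333 and 402 on the 6 arrays without MTXAP replicate 3. Array weights gave MTXAP replicate 3 a weight of 0.45. Without HAP replicate 3 there were 158 higher and 151 lower, and without MTXAP replicate 2 there were 412 lower.

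The replicate numbers did not pair the samples: deviations of same-numbered arrays correlated at -0.055, 0.102 and 0.009. With the number as a replicate block 0 probe sets were called and 114 were higher and 220 lower at the study's thresholds.

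The median of MHC class II was -0.66 without MTXAP replicate 3, and from -0.66 to -0.03 over the arrays left out. Genes of the text whose sign turned without 1 array were Alas2 (-3.98 to 0.43), Adora2a (-0.22 to 0.61), S100a8 (-0.93 to 0.38), S100a9 (-0.63 to 0.08), Rac1 (-0.13 to 0.56) and Cd14 (-1.29 to 0.09). No setting other than a left-out array turned the sign of a gene named here. Causes were not tested.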

Other observations

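Lists of basic cell machinery had small medians. Of 40 cytosolic ribosomal protein genes 39 were below 0 in MTXAP minus HAP, with a median of -0.10 that is within 0.05 of the median of all genes. Oxidative phosphorylation genes had 49 of 67 below 0 and a median of -0.07. Atp5f1c, the gamma subunit of ATP synthase, had log2 signals of 12.18, 12.24 and 12.28 in HAP and 11.55, 11.77 and 11.85 in MTXAP, without overlap (-0.51 ± 0.15), and Sdhb, a subunit of succinate dehydrogenase, had -0.41 ± 0.17. Mitochondrial ribosomal protein genes had 41 of 69 below 0 and a median of -0.06, and 13 of them had every MTXAP array below every HAP array, where 9.35% of all genes did. Mrps12 had 10, 9.97 and 9.97 in HAP and 9.70, 9.49 and 9.52 in MTXAP (-0.41 ± 0.14).

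Proteasome genes had a median of -0.01, with 3 of 41 lower at an unadjusted p under 0.05, where 5.23% of all genes were. They were Psmb3, a structural subunit (-0.40), Psmb10, a catalytic subunit of the immunoproteasome, and Psme2, a subunit of its activator. Psmb10 had 11.59, 11.42 and 11.40 against 10.69, 10.88 and 11.28 (-0.52 ± 0.18) and Psme2 had -0.60 ± 0.23. Psmb9, Psmb8 and Psme1, of the same complexes, had -0.47, -0.22 and -0.25 and missed that p. Heat shock genes (10 of 28 above 0, median -0.04), glycolysis and hypoxia genes (12 of 28, -0.05), clock genes (11 of 18, 0.15), TGF-beta and EMT factors (11 of 19, 0.08), integrins and selectins (9 of 19, -0.02), plasma cells (3 of 7, -0.14), dendritic cells (6 of 9, 0.14) and basophils with mast cells (6 of 10, 0.15) are given here as members above 0 and median. Without MTXAP replicate 3 the medians of TGF-beta and EMT factors, dendritic cells, and basophils with mast cells were -0.12, -0.21 and -0.51. Bnip3, a mitochondrial gene of the hypoxia response, had 8.01, 7.31 and 7.89 in HAP and 8.99, 8.72 and 8.55 in MTXAP, without overlap (1.01 ± 0.39). The summed signal of basophil and mast cell markers was 6964 on HAP replicate 1 and 12947 on MTXAP replicate 3, and 1103 to 1997 on the other 4 arrays.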
